A study of Mus musculus with 8 samples.

Results

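Atp1b1, Fxyd3 and Fxyd4 are the 3 genes described here, out of 5828 listed in any of the 4 deposited comparison tables of a spatial transcriptomics study of the mouse uterus. They were selected by gene symbol, as a beta subunit of the sodium pump and a pair of its small regulators. The KO epithelium against WT epithelium table lists all 3, as do the tables of epithelium against stroma in WT and in KO. The KO stroma against WT stroma table lists Fxyd3 alone. Uterine sections from 4 KO and 4 WT females were profiled on Visium slides, where each barcoded spot captures transcripts from a small patch of tissue that can hold several cell types. KO animals have the genotype EZ fl/fl; Prcre/+, meaning floxed Ezh2 alleles with a Cre expressed from the progesterone receptor locus. WT animals are EZ fl/fl, so they carry the floxed alleles without Cre. Recombination can occur in any uterine cell that expresses the receptor, and no label restricts it to epithelium or stroma. All animals were of mixed C57BL/6 and 129SvEv strain, drawn as a KO and a WT female from each of 4 litters. All had their ovaries removed at postnatal day 71 ± 4 and gave their uteri at day 112 ± 11. The tables give 1 value per gene, genotype and compartment, so there is no spread between animals for any value below.

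The sodium pump, Na,K-ATPase, spends ATP to export sodium from the cell and import potassium. It is built from a catalytic subunit and a glycosylated beta subunit, which escorts the complex to the plasma membrane and also acts in adhesion between neighbouring cells. FXYD proteins are short single-span membrane proteins that sit beside the pump and tune its affinity for ions. In epithelia the pump usually lies on the basolateral membrane and supplies the gradient for salt and water transport, which in the uterus sets the volume of luminal fluid. Atp1b1 encodes the beta 1 subunit. Fxyd3, also known as Mat-8, is an FXYD gene of epithelia, and Fxyd4 encodes the regulator CHIF, described in kidney collecting duct and distal colon as a protein that raises the pump's sodium affinity.

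All 3 genes are annotated as protein-coding, on the minus strand of GRCm38. Atp1b1 (ENSMUSG00000026576) lies at chr1:164437109-164458355, Fxyd3 (ENSMUSG00000057092) at chr7:31068172-31076704 and Fxyd4 (ENSMUSG00000004988) at chr6:117933559-117937692. Fxyd3 belongs to a run of FXYD genes that spans 44.0 kb of chromosome 7. Fxyd5, Fxyd7 and Fxyd1 precede it there on the same strand, and 11.0 kb separates Fxyd1 from Fxyd3. The plus-strand genes Nme7 and Lgi4 overlap the 3′ ends of Atp1b1 and Fxyd3, respectively. Neither is listed in a table, and whether counting used strand is not given in the sources used here.

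The promoters are shown because the 3 genes share a compartment bias in these data while their start regions differ in CpG content, a feature of the promoters that Polycomb repressive complex 2, the complex of Ezh2, is known to bind. Binding of this complex to the 3 promoters was not tested. Each sequence runs 5′ to 3′ on the gene's strand, from 250 bases before to 50 bases after the RefSeq start on GRCm38.p6. Capitals mark matches, on either strand, to 4 motifs. These are the GC box with letters GGGCGG, the box spelled CCAAT, a KLF motif with letters GGGTGTGG, and an ETS motif with letters CCGGAA. The windows are chr1:164458306-164458605 for Atp1b1, chr7:31076648-31076947 for Fxyd3 and chr6:117937286-117937585 for Fxyd4, and the GENCODE model of Fxyd4 extends upstream of its window.
Atp1b1: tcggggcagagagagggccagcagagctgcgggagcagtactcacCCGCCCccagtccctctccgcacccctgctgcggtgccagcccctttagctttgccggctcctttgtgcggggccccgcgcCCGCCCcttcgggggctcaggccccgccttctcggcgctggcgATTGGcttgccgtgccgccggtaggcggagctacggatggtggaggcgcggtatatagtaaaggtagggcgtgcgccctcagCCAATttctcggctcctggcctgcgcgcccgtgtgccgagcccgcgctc
Fxyd3: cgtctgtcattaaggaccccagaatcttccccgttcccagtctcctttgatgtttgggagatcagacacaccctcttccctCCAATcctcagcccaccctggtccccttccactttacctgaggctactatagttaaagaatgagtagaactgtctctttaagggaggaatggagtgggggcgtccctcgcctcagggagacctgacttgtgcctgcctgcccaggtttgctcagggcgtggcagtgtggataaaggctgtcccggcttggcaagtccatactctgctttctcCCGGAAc
Fxyd4: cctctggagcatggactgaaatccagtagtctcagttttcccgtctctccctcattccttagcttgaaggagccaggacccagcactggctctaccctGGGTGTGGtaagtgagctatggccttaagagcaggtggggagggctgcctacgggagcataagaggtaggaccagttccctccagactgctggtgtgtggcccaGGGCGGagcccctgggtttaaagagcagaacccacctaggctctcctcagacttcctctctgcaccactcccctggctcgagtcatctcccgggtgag

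The Atp1b1 window held 31 CpG dinucleotides at a GC content of 71.0%, more CpGs than 89.4% of 32851 RefSeq promoter windows of this length. The Fxyd3 window held 7, which is the median of all windows, and the Fxyd4 window held 5. GC box letters occurred in the Atp1b1 and Fxyd4 windows and in 35.7% of all windows. CCAAT occurred in the Atp1b1 and Fxyd3 windows and in 37.4% of all. The KLF letters were in the Fxyd4 window and in 3.56% of all, and the ETS letters in the Fxyd3 window and in 14.9% of all. These motifs do not overlap each other in the 3 windows. The letters TATAAA (in 13.6% of all windows), AGAACA (a steroid receptor half-site, 19.0%) and AGGTCA (a nuclear receptor half-site, 16.3%) were in none of the 3 windows. A match is a description of the sequence and not evidence of binding.

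Each deposited average could be turned back into a whole number of UMIs (unique molecular identifiers, or counted transcripts) summed over the spots of a pool. Over all listed genes the WT pools held 1428541 UMIs in epithelium and 416747 in stroma, and the KO pools 1552958 and 947663. Levels are given as UMIs per 10000 UMIs of the same pool, counted over the 1755 genes with a sum in all 4 pools. Fold changes are ratios of UMIs divided by the authors' size factors, without a pseudocount. Intervals are exact 95% intervals of counting error only and say nothing of variation between animals. Genes count as called when the adjusted p-value deposited by the authors is below 0.05. In spots of mixed tissue, fewer cells of a type and less RNA per cell cannot be told apart.

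The pools were checked against markers of their labels. Of 19 simple epithelium markers, 12 had a sum in all 4 pools, among them Krt8, Krt18, Epcam and Cdh1. Their summed level was 115 in WT epithelium and 99.3 in KO epithelium, against 15.5 in WT stroma and 33.9 in KO stroma. None of the 12 was at 0 in any pool. The 12 endometrial stroma markers, such as Dcn and Pdgfra, summed to 195.9 in WT stroma, 164 in KO stroma, 85.0 in KO epithelium and 64.9 in WT epithelium. Both compartments thus held transcripts of the other, and KO stroma held 2.23 times the epithelial marker signal of WT stroma (2.05 to 2.43). Of these 12 markers, 8 were listed between genotypes in stroma and 0 were called, where 1.51% of all listed genes were called. The 7 smooth muscle markers with sums in all pools came to 34.1 in WT stroma, 15.8 in KO stroma, 12.5 in WT epithelium and 7.34 in KO epithelium. Ezh2 is not among the genes analysed here. Pgr had 240 UMIs in KO and 257 in WT epithelium, and 166 in KO and 90 in the less deep WT stroma pool. Scaled by size factors, KO was at 0.86 times WT (0.72 to 1.03) in epithelium and 0.92 times WT (0.71 to 1.20) in stroma. The authors' deposited tables give it an adjusted p of 1 between genotypes in both compartments.

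**Figure D1:**
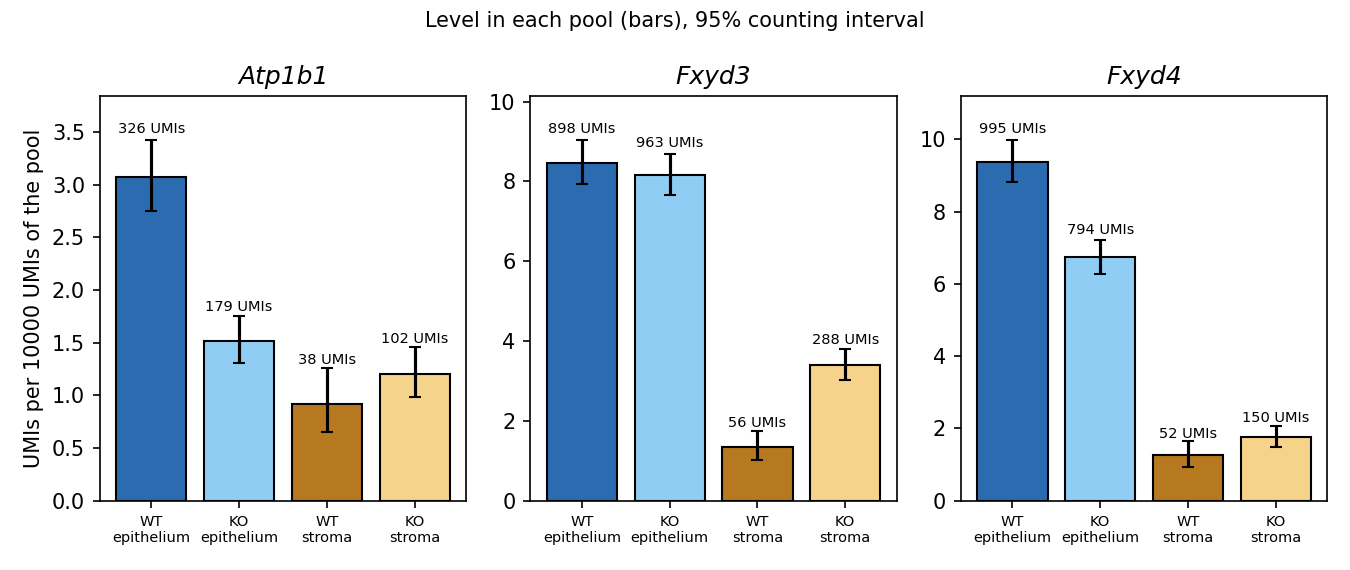
Level of Atp1b1, Fxyd3 and Fxyd4 (UMIs per 10000 UMIs of the pool, vertical axes from 0) in each of the 4 pools, with the UMIs printed above each bar and error bars for the 95% counting interval. Each gene's highest bar is WT epithelium and its lowest WT stroma, the epithelial intervals of Fxyd3 overlap, and Atp1b1 is at 3.08 in WT and 1.52 in KO epithelium.

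All 3 genes had their highest level in WT epithelium and their lowest in WT stroma, and differed in how far apart the neighbouring pools lay. Atp1b1 had 326 UMIs in WT epithelium, 179 in KO epithelium, then 102 in KO stroma and 38 in WT stroma. Its levels in that order were 3.08, 1.52, 1.20 and 0.92. WT epithelium stood apart, while the interval of KO epithelium (1.30 to 1.76) overlapped that of KO stroma (0.98 to 1.46), which overlapped that of WT stroma (0.65 to 1.26). Fxyd3 had 898 UMIs in WT epithelium, 963 in KO epithelium, then 288 in KO stroma and 56 in WT stroma, with levels of 8.47, 8.16, 3.39 and 1.35. Its epithelial pools overlapped each other, and KO stroma lay between these and WT stroma without overlap. Fxyd4 had 995 UMIs in WT epithelium, 794 in KO epithelium, then 150 in KO stroma and 52 in WT stroma. Its levels were 9.39, 6.73, 1.77 and 1.25, where the epithelial intervals were apart (8.81 to 9.99 and 6.27 to 7.22) and the stromal intervals overlapped (1.49 to 2.07 and 0.94 to 1.64).

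In WT uterus all 3 genes were called higher in epithelium than in stroma. Fxyd4 was 7.53-fold higher (95% counting interval 5.69 to 10.2) and ranked 26th of 1769 listed genes by this ratio. Fxyd3 was 6.31-fold higher (4.81 to 8.42), at rank 46, and Atp1b1 3.37-fold higher (2.41 to 4.86), at rank 105. In the authors' deposited table their adjusted p-values are 1.09e-08 for Fxyd4, 1.25e-11 for Fxyd3 and 2.49e-05 for Atp1b1. Across all genes listed there, 13.1% were called higher in epithelium. The authors list a gene only where its average passes 1 in at least 1 pool. All 3 genes had a stromal average under 1 (0.54 for Atp1b1, 0.80 for Fxyd3 and 0.75 for Fxyd4) and so were listed through epithelium alone. The summed level of the 12 epithelial markers was 7.43-fold higher in the same contrast (6.86 to 8.05), and those markers ranged from 4.79-fold for Cdh1 to 9.97-fold for Wfdc2. Fxyd3 and Fxyd4 lay inside that range and Atp1b1 below it. A single marker each of glandular and luminal epithelium lay outside that range. Aldh1a1, the glandular marker with a sum in all 4 pools, was at 3.46-fold (2.47 to 4.97), close to Atp1b1. Calb1, the luminal marker with such a sum, was at 24.5-fold (11.8 to 61.3), from 436 UMIs against 7 in stroma.

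Of the 4 genes in the list of beta subunits, 2 were listed in the WT table, Atp1b1 and Atp1b3, and Atp1b1 was the one called. Atp1b3, another beta subunit, was not called, at 259 UMIs in epithelium and 147 in stroma and a ratio of epithelium to stroma of 0.69 (0.56 to 0.85). The authors' deposited table gives it an adjusted p of 0.221, and the difference between both genes was not tested. Their log2 ratios of 1.75 for Atp1b1 and -0.53 for Atp1b3 gave a median of 0.61, which describes neither. The median of all listed genes was 0.02. Atp1b2 and Atp1b4 were not listed in any comparison, so no value of them is given.

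The listed FXYD genes included some higher in each compartment. Of 7 genes, 5 were listed and all 5 were called, 2 higher in epithelium (Fxyd3 and Fxyd4) and 3 higher in stroma, where 15.7% of the table was called. Fxyd1, which encodes phospholemman, the FXYD protein of heart and muscle, was 2.53-fold higher in stroma (2.00 to 3.18). Fxyd5, which encodes dysadherin, a protein that weakens cell adhesion, was 2.22-fold higher in stroma (1.59 to 3.10), and Fxyd6 1.86-fold (1.35 to 2.53). Their adjusted p-values in the authors' deposited table are 2.34e-05, 0.00365 and 0.0437. Fxyd1, Fxyd5 and Fxyd6 had epithelial averages under 1 and were listed through stroma alone, as Fxyd3 and Fxyd4 were through epithelium. The count of 5 called therefore says nothing about the list. The neighbours Fxyd1 and Fxyd3 on chromosome 7 thus had opposite compartments, with log2 ratios of epithelium over stroma of -1.34 and 2.66. The median log2 ratio of the 5 FXYD genes was -0.89. Fxyd2 and Fxyd7 were not listed in any comparison, so no value of them is given.

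**Figure D2:**
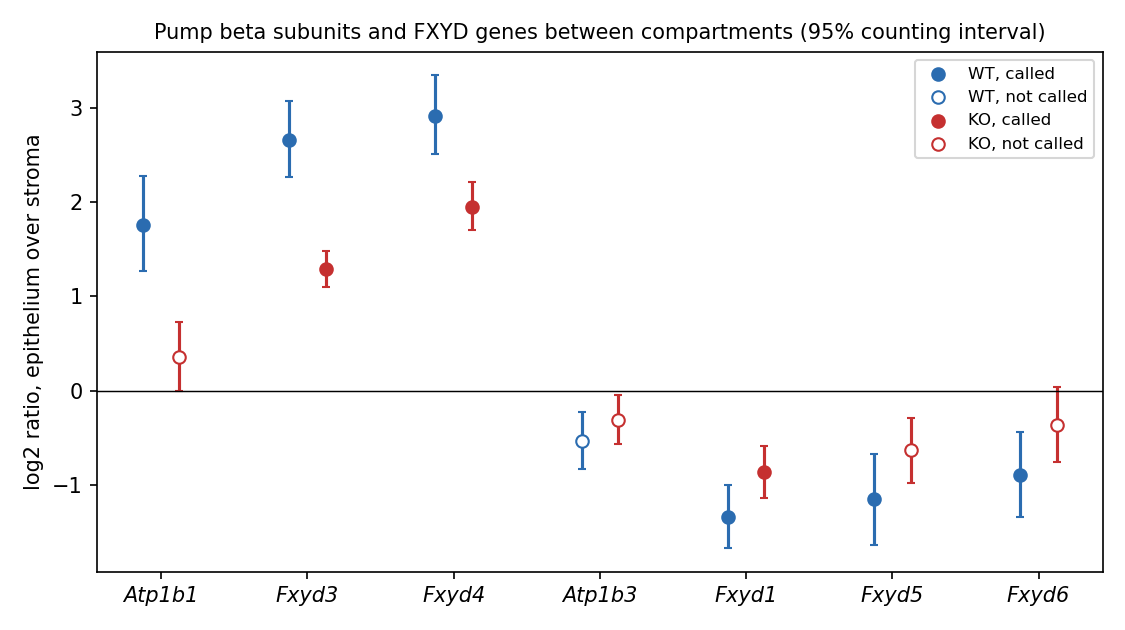
Log2 ratio of epithelium over stroma (vertical axis) for the 7 listed beta subunit and FXYD genes, with WT in blue and KO in red, 95% counting intervals as bars, and filled points for genes called in the authors' tables. Atp1b1, Fxyd3 and Fxyd4 lie above 0 and the other 4 below, and every KO point is nearer to 0 than the WT point of the same gene.

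In KO uterus Fxyd4 and Fxyd3 were again called higher in epithelium, and Atp1b1 was not called. Fxyd4 was 3.87-fold higher (95% counting interval 3.24 to 4.63) and ranked 12th of 2744 listed genes by this ratio. Fxyd3 was 2.44-fold higher (2.14 to 2.80), at rank 82. Atp1b1 had 179 UMIs in epithelium and 102 in stroma, a ratio of 1.28 (1.00 to 1.65) at rank 482. The authors' deposited table gives adjusted p-values of 2.49e-05 for Fxyd4, 0.00120 for Fxyd3 and 0.879 for Atp1b1. Across all genes listed there, 5.43% were called higher in epithelium. In this table the averages of Fxyd3, Fxyd4 and Atp1b1 passed 1 in both pools, so none was listed through a single pool. Of 2 glandular markers listed in KO, Aldh1a1 had a ratio of 1.08 (0.89 to 1.32), near that of Atp1b1. Cxcl15, the other, was higher in stroma, at a log2 ratio of -0.46. Of 3 luminal markers listed, Calb1 had the highest ratio, at 9.06 (5.74 to 15.1). The 3 had log2 ratios from 1.50 to 3.18.

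Atp1b3 was not called in KO either, at a ratio of epithelium to stroma of 0.81 (0.67 to 0.97). Of the FXYD genes higher in WT stroma, Fxyd1 was called in KO as well, 1.81-fold higher in stroma (1.50 to 2.20), with adjusted p = 0.0330 per the authors' deposited table, where 4.45% of the table was called higher in stroma. Fxyd5 had a ratio of epithelium to stroma of 0.64 (0.51 to 0.82) and Fxyd6 of 0.78 (0.59 to 1.03), and neither was called. Median log2 ratios were 0.03 for both beta subunits and -0.36 for the 5 FXYD genes, against -0.01 for all listed genes. The first lies between 0.36 for Atp1b1 and -0.31 for Atp1b3.

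The compartment contrast was smaller in KO than in WT for all 3 genes. The KO contrast divided by the WT contrast was 0.38 for Atp1b1 (95% counting interval from a log-scale approximation, 0.25 to 0.57), 0.39 for Fxyd3 (0.29 to 0.52) and 0.51 for Fxyd4 (0.37 to 0.71). The same quotient was 0.40 for the 12 summed epithelial markers (0.37 to 0.44), with single markers from 0.32 for Cd24a to 0.53 for Cldn7. The 3 genes were inside that range. A weaker contrast in KO was not limited to epithelial genes. The ratio of epithelium to stroma was 0.33 in WT and 0.53 in KO for the 12 endometrial stroma markers. It was 0.37 and 0.47 for the 7 smooth muscle markers, and 0.61 and 0.62 for 2 leukocyte markers. The part of epithelial transcripts in KO stroma spots in the quotients was not tested, and no test between animals can be made from pooled values.

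The smaller contrast came with different genotype ratios in the 3 genes. In epithelium, 0 of the 3 genes was called between KO and WT, where 0.12% of 5811 genes were called. Unadjusted p-values were not used here. Atp1b1 had 179 UMIs in KO and 326 in WT, a KO level 0.51 times that of WT (95% counting interval 0.42 to 0.61). It had the 39th lowest of the 5811 ratios, with adjusted p = 0.573 per the authors' deposited table. The 12 simple epithelium markers had higher ratios than Atp1b1, from 0.65 for Cldn3 to 1.29 for Cldn10. Of 4 luminal markers listed there, Calb1 was the lowest and was level with Atp1b1, at 0.52 (0.45 to 0.61). The 4 had log2 ratios from -0.93 to 0.42, with a median of -0.15. Of 2 glandular markers listed, Aldh1a1 was at 0.72 (0.61 to 0.85). Cxcl15, the other, went the other way, at a log2 ratio of 1.22. None of these markers was called. Fxyd4 was at 0.74 times WT (0.67 to 0.81) and Fxyd3 at 0.99 times WT (0.90 to 1.08), each with adjusted p = 1 per the authors' deposited table. The interval of Fxyd3 covers equal levels, and centring on the median gene of the table, which stood at -0.10 on the log2 scale, turns its log2 ratio from -0.02 to 0.09.

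The other listed beta subunit had a ratio nearer to 1 in KO epithelium. Atp1b3 was at 0.93 times WT (0.78 to 1.10), from 260 and 259. Fxyd5 had a ratio of 1.56 (1.17 to 2.08). Fxyd1 was at 1.18 (0.95 to 1.47) and Fxyd6 at 1.03 (0.78 to 1.37). The authors' deposited table gives all of these an adjusted p of 1. The 3 FXYD genes called higher in WT stroma had ratios above 1, with intervals that cover 1 for Fxyd1 and Fxyd6. They stood beside endometrial stroma markers whose sum was 1.34 times as high in KO epithelium (1.30 to 1.39). Of these 12 markers, 10 had log2 ratios above 0, in a range from -0.12 to 0.92. Of the same 12, 0 were called, where 0.12% of all listed genes were. The part of stromal transcripts in the FXYD ratios was not tested. Median log2 ratios were -0.55 for both beta subunits and 0.05 for the 5 FXYD genes. The first lies between -0.98 for Atp1b1 and -0.11 for Atp1b3.

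In stroma all 3 genes had ratios of KO over WT above 1, with an interval that covers 1 for Atp1b1. Fxyd3 had 288 UMIs in KO and 56 in WT, 2.56 times as high in KO (95% counting interval 1.91 to 3.47), the 15th highest of 1191 ratios. It was not called, with adjusted p = 0.231 per the authors' deposited table, where 1.51% of genes were called. Its average was 1.69 in KO stroma and 0.66 in WT stroma, so KO alone brought it into the table. Atp1b1 and Fxyd4 stayed out of that table because neither average reached 1, but their sums are known from the compartment tables. Averages of 1 pool cannot be compared between tables, since each table has its own size factor sums. That of KO stroma was 170 here and 89.2 in the KO compartment table, where both genes passed 1. Fxyd4 was at 1.43 times WT (1.04 to 2.01), from 150 and 52 UMIs, and Atp1b1 at 1.33 times WT (0.91 to 1.99), from 102 and 38. No p-value exists for these. The 12 epithelial markers ranged from 1.44 for Cldn3 to 2.94 for Krt19, with a median of 2.22. Fxyd3 was above their median, while Fxyd4 was level with the lowest and Atp1b1 below it. Of the 12 markers, 8 were listed between genotypes in stroma and 0 were called.

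Atp1b3 and Fxyd1 were at 0.79 times WT (0.64 to 0.98) and 0.85 times WT (0.69 to 1.04) in stroma, each with adjusted p = 1 per the authors' deposited table. The log2 ratios in that table were 1.35 for Fxyd3 and -0.24 for Fxyd1. Their median of 0.56 describes neither gene. The median of all listed genes was -0.05.

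**Figure D3:**
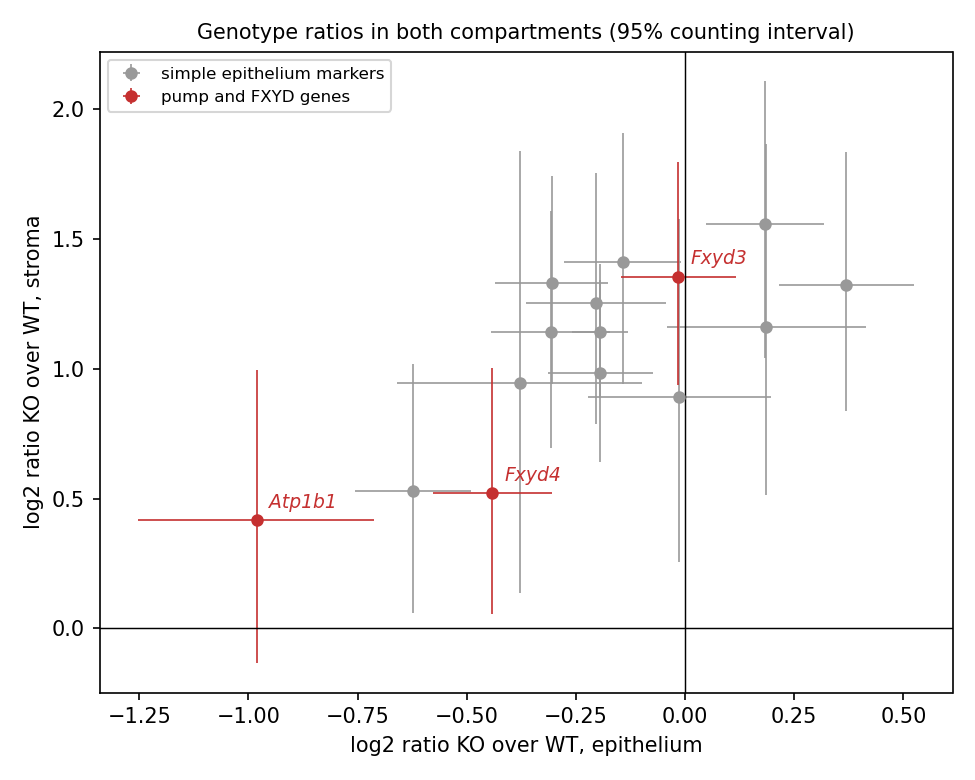
Log2 ratio of KO over WT in epithelium (horizontal axis) and in stroma (vertical axis) for Atp1b1, Fxyd3 and Fxyd4 (red) and 12 simple epithelium markers (grey), with 95% counting intervals. Fxyd3 lies among the markers, and Atp1b1 lies farthest to the left, at -0.98 in epithelium.

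Shares within a pair of genes need no scaling between pools, and the pairs were chosen after the values were seen. Of the UMIs of Atp1b1 and Atp1b3 together, Atp1b1 made up 55.7% in WT epithelium (95% Clopper-Pearson interval 51.6 to 59.8) and 40.8% in KO epithelium (36.1 to 45.5). It made up 20.5% in WT stroma (15.0 to 27.1) and 30.3% in KO stroma (25.4 to 35.5). The epithelial intervals did not overlap, and the stromal intervals did.

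Fxyd3 held 85.5% of the pair with Fxyd1 in WT epithelium (83.2 to 87.6) and 83.2% in KO epithelium (81.0 to 85.3). In stroma the Fxyd3 share was 27.1% in WT (21.1 to 33.6) and 52.8% in KO (48.6 to 57.1), with no overlap. Of the pair of Fxyd4 and Fxyd3, Fxyd4 held 52.6% in WT epithelium (50.3 to 54.8) and 45.2% in KO epithelium (42.8 to 47.6). In stroma it held 48.1% in WT (38.4 to 58.0) and 34.2% in KO (29.8 to 38.9). The Fxyd4 share was lower in KO in both compartments, and the stromal intervals overlapped slightly.

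**Figure D4:**
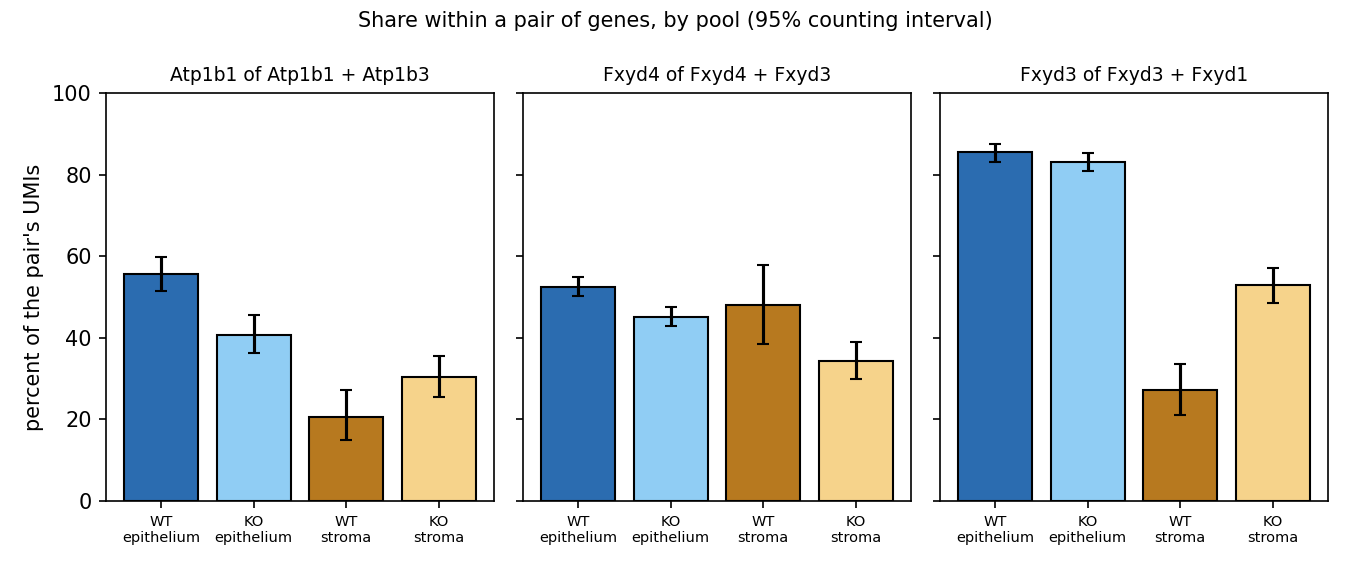
Percent of a pair's UMIs that belong to Atp1b1 (with Atp1b3), Fxyd4 (with Fxyd3) and Fxyd3 (with Fxyd1) in each of the 4 pools, on axes from 0 to 100, with 95% Clopper-Pearson intervals of counting error. Atp1b1 goes from 55.7% in WT epithelium to 40.8% in KO epithelium, and Fxyd3 from 27.1% in WT stroma to 52.8% in KO stroma.

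Other ion transport genes gave a background to these 3. Among 33 channels, exchangers and water channels of epithelia, 4 were listed in the WT compartment table. The potassium channel gene Kcnk1 was called 5.30-fold higher in epithelium (3.33 to 8.95) and Clca1, a secreted regulator of chloride channels, 7.10-fold (4.36 to 12.4). The water channel gene Aqp1 was called 4.60-fold higher in stroma, and Ano1, a calcium-activated chloride channel, 3.20-fold. Among all genes listed there, 13.1% were called higher in epithelium and 15.7% in stroma, but all 4 of these genes had an average above 1 in the higher pool alone and were listed through it, so their count says nothing about the list. In KO 5 were listed, with Kcnk1 called higher in epithelium (2.73-fold, 2.08 to 3.64), Aqp1 (3.57-fold) and Ano1 (2.09-fold) called higher in stroma, and Clca1 and Slc12a2 not called, where 5.43% of the table was called higher in epithelium and 4.45% in stroma. Kcnk1 and Aqp1 were again listed through the higher pool alone. Between genotypes 0 of 9 listed genes were called in epithelium, where 0.12% of all were. In stroma, where 1.51% of all were called, Clca1 was called among 3 listed, 7.89-fold higher in KO (4.84 to 13.8), and was listed through KO alone.

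Regulators and partners of the pump and of the epithelial sodium channel numbered 23, of which 6 were listed in the WT compartment table. St14, the membrane protease matriptase, was called 15.2-fold higher in epithelium (6.40 to 47.3), from 193 UMIs against 5. The glucocorticoid receptor gene Nr3c1 was called 2.80-fold higher in stroma, as was the spectrin gene Sptbn1 at 1.58-fold. St14 and Nr3c1 were listed through the higher pool alone, and Sptbn1 passed an average of 1 in both pools. In KO 7 were listed. St14 (2.84-fold) and Prss8, the channel-activating protease prostasin (2.52-fold, 1.85 to 3.49), were called higher in epithelium, and Nr3c1 was called higher in stroma (2.13-fold), all 3 listed through the higher pool alone. The shares called over each whole table are those given for the transport genes. Between genotypes 0 of 13 listed were called in epithelium and 0 of 4 in stroma, beside 0.12% and 1.51% of all genes, so a count of 0 is not a result about this list. Of 14 other P-type ATPases, the calcium pump gene Atp2b1 was called higher in WT stroma (1.91-fold) among 2 listed, and Atp2b2, another calcium pump, was called higher in KO epithelium than KO stroma (3.09-fold, 2.18 to 4.47) among 4 listed, through epithelium alone. None of this list was called between genotypes, with 5 listed in epithelium and 2 in stroma.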

How the data were processed

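Sections of 10 µm from 8 uteri were made into Visium libraries, per the labels' protocols, and the submitters' processing notes name GRCm38. Aligner, spot naming and the authors' test are not given in the sources used. Per the file headers, each table has an average per pool, a log2 fold change and an adjusted p-value. The deposited average is treated as a score: from the values, it is a pooled UMI sum divided by a size factor sum. The authors pooled the animals of a genotype. The authors' log2 fold equals the log2 ratio of pooled sums plus 1 over size factor sums plus 1. Solving for the latter gave whole numbers (within 0.01) for 100% of averages. Depth per pool is given with the results. No test was run on pooled sums; calls are the authors', at an adjusted p under 0.05.

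The members and 15 gene lists were chosen with earlier results of these data known. Some genes of these lists are not reported here and were left out of list sums and counts. Named were the members, listed beta subunit and FXYD genes, called genes of other transport lists, and per member the 5 genes nearest in level pattern. Alternatives were stricter calls, no low-level genes, other scalings, the deposited fold and a marker reference. The tables pool animals, so litters could not enter. GENCODE M21 gave positions for 5826 of 5828 gene IDs, and RefSeq gave promoters for 3 of 3 members. Recovery and intervals were tested on data simulated with counting error alone. That test cannot show how the intervals fare under variation between spots or animals. Python 3.11.15, NumPy 2.4.6, SciPy 1.17.1 and pandas 2.3.3 were used.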

Additional observations from a re-analysis of the deposited data

How the results depend on the processing

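No paired analysis was possible because each value pools 4 animals, which also prevented leaving out single replicates. With calls at an adjusted p under 0.01, KO against WT had 2 called genes in epithelium instead of 7, and 10 in stroma instead of 18. The KO compartments had 175 instead of 271, and the WT compartments 385 instead of 509. Dropping the lowest 25% of genes by level left 6 called for KO against WT epithelium and 9 for KO against WT stroma. It left 184 for the KO compartments and 327 for the WT compartments. The 5 calls of Atp1b1, Fxyd3 and Fxyd4 held under all 3 stricter rules, with the deposited p-values not readjusted. Their 5 non-calls could not change under such rules. Their 12 log2 folds stayed within the counting interval when centred on the median gene or scaled by total UMIs, as did the 10 that could be set beside the authors' deposited log2 fold. Divided by the summed simple epithelium markers of the same table, a different quantity, the log2 folds of Atp1b1, Fxyd3 and Fxyd4 became -1.14, -0.24 and 0.019 in WT epithelium against WT stroma, -1.21, -0.28 and 0.38 in KO epithelium against KO stroma, and -0.81, 0.13 and -0.70 in KO stroma against WT stroma. In KO against WT epithelium Atp1b1 became -0.82, within its counting interval, Fxyd3 0.15 and Fxyd4 -0.28. The stroma table lists 8 of the 19 markers, and Krt8, Krt18, Krt19, Cd24a, Cldn10 and Epcam are there through KO alone. Markers with lower ratios of KO over WT, such as Cldn3 at 1.44, are not in that reference. Depth limits the stromal values, where WT held 38 to 56 UMIs of each gene.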

Other observations

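Genes with the pattern most like each of the 3 were sought among the other 1754 genes with a sum in all 4 pools and at least 100 UMIs over them. Likeness was the distance between log2 levels over the 4 pools, each gene centred on its own mean. With 4 pools that share libraries and depth, this is a description. The 5 genes nearest to Fxyd3 were Rnf128 (distance 0.098), Dlx5 (0.11), Ucp2 (0.15), Plet1 (0.22) and the epithelial adhesion gene Epcam (0.22). Rnf128 had 790 UMIs in WT epithelium, 829 in KO epithelium, 49 in WT stroma and 271 in KO stroma. Nearest to Fxyd4 were the claudin gene Cldn3 (0.16), Slc25a48 (0.30), Emb (0.31), Pdzk1ip1 (0.35) and Cndp2 (0.36). Cldn3 had 1117 UMIs in WT epithelium, 786 in KO epithelium, 51 in WT stroma and 148 in KO stroma. It was also the marker with the lowest ratio of KO over WT in both compartments.

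Nearest to Atp1b1 were the long noncoding RNA Gm43305 (0.12), Gstm2 (0.20), Vps54 (0.27), the apoptosis regulator Bcl2l1 (0.29) and Tsnax (0.30). Gm43305 had 323 UMIs in WT epithelium, 179 in KO epithelium, 36 in WT stroma and 92 in KO stroma, close to Atp1b1 in each pool. Fxyd3 (1.32) and Fxyd4 (1.43) were farther from Atp1b1, at ranks 880 and 1035. Seen from the other side, at the same distances, Atp1b1 was at rank 142 for Fxyd3 and 117 for Fxyd4. Fxyd3 and Fxyd4 were 0.81 apart, which placed Fxyd4 at rank 78 for Fxyd3 and Fxyd3 at rank 48 for Fxyd4.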
